A study of Mus musculus with 64 samples.

Results

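SOX2 binding was compared between 2 kinds of mouse cells that both hold little SOX2, the SOX2-OFF cells and the caudal epiblast-like cells (CEpiLC). The comparison takes in 6 chromatin immunoprecipitation (ChIP-seq) samples, 3 of each condition, identified by their labels among 12 SOX2 samples in 4 conditions and 64 samples in the series. Both conditions came from the HM1 TetON embryonic stem cell line, which expresses a doxycycline-dependent activator from Rosa26, and were harvested at 72 h. Cells were kept with 10 ng/ml bFGF and 5 µM LGK974, which blocks WNT secretion, and CHIR99021, a GSK3 inhibitor that switches on WNT signalling, was then added until day 3. CEpiLC were of this parent line, wild-type for Sox2, and received no other treatment. SOX2-OFF cells carried the genotype Sox2-/- with a Sox2 transgene at the Hprt locus that doxycycline switches on through this activator. They were grown with 1 µg/ml doxycycline as stem cells, and it was withdrawn for differentiation. The SOX2-TetON line was picked as a colony, so all 3 SOX2-OFF samples come from 1 edited line. The line, the transgene and the loss of endogenous Sox2 therefore cannot be told apart in this comparison, which asks where the SOX2 left after withdrawal is found.

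SOX2 is a transcription factor with an HMG box, which bends DNA at short sequences such as CATTGT and CTTTGT. In pluripotent cells it often binds beside the POU factor OCT4, at joint sites that hold an octamer. In the caudal epiblast, the progenitor region of spinal cord and posterior mesoderm, it works beside the CDX factors and the LEF/TCF factors, which carry β-catenin to DNA on WNT signalling. Nodal signalling acts in the same tissue through SMAD proteins and the forkhead factor FOXH1.

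The lists give no reads per peak, so the depth of each sample is unknown and counting error could not be given. In bulk chromatin, fewer bound cells and weaker binding per cell cannot be told apart. SOX2-OFF samples had 56263, 375980 and 224107 deposited peaks, and CEpiLC had 29298, 104085 and 39683. The ranges overlapped, and the log10 numbers differed by 0.531 between the means, with an exact permutation p of 0.2 (two-sided). With 3 against 3 samples, such an exact test cannot go below p = 0.1. The strongest 20000 peaks of each sample, ranked by the deposited −log10 p-value, were used from here on unless stated otherwise. Their median width was 172, 248 and 239 bp in SOX2-OFF and 320, 292 and 251 bp in CEpiLC, so every SOX2-OFF sample had narrower peaks (exact permutation p = 0.1). SOX2-OFF replicate 1 stood apart, with a −log10 p-value of 6.54 at its last rank against 11.5 and 11.6 in the other SOX2-OFF samples and 7.53 to 9.68 in CEpiLC. It also held very strong peaks over exons of Tfap2a, Tfap2c and Tcf7l1, with a highest fold of 267, 119 and 158, whereas CEpiLC replicate 1 reached 21.5, 97.4 and 72.7 and the other samples at most 10.5. Whether these exon peaks reflect chromatin was not tested, and no site named below lies at these 3 genes. The lists hold no expression, so neither the loss of Sox2 nor the cell identity could be checked from markers. Peaks over the Sox2 exon numbered 0, 0 and 2 in SOX2-OFF and 2, 1 and 1 in CEpiLC.

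SOX2-OFF samples overlapped CEpiLC samples about as much as they overlapped each other, or more. The Jaccard index, the shared base pairs over the union, averaged 0.132 ± 0.0270 (SD, 3 pairs) among SOX2-OFF samples and 0.302 ± 0.0389 (SD, 3 pairs) among CEpiLC samples. Pairs of different conditions averaged 0.157 ± 0.0382 (SD, 9 pairs). SOX2-OFF replicate 3 shared more with CEpiLC (mean 0.194) than with its own condition (0.146), and so did replicate 2 (0.162 against 0.132), while replicate 1 was near equal (0.116 against 0.119). Over all pairs, indices within a condition exceeded those between conditions by 0.0601, with p = 0.1 in a one-sided exact permutation test over 10 splits. That excess came from the CEpiLC pairs, since the mean of the SOX2-OFF pairs lay below the mean between conditions.

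**Figure D1:**
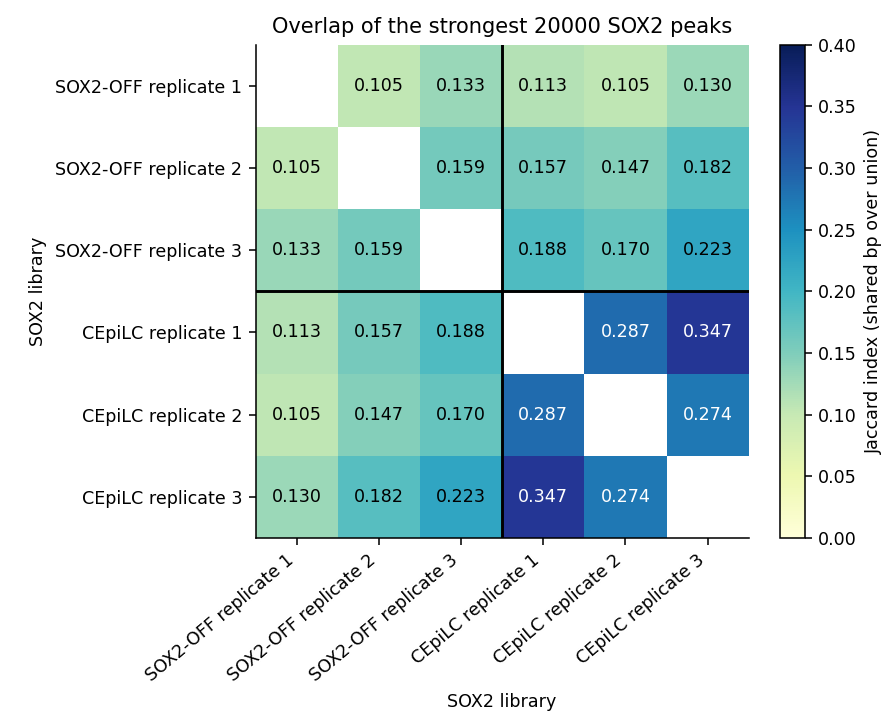
Jaccard index (shared bp over union) of the strongest 20000 SOX2 peaks for each pair of samples, with SOX2-OFF in the first 3 rows and columns and CEpiLC in the last 3. The CEpiLC pairs lie between 0.274 and 0.347, whereas the SOX2-OFF pairs, between 0.105 and 0.159, lie within the range of the mixed pairs, 0.105 to 0.223.

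The low overlap lay in the weaker peaks. Of the 500 strongest peaks of each SOX2-OFF sample, 94.2%, 97.1% and 96.7% were also in a CEpiLC list, as a mean over the 3 lists, and 93.3%, 97.6% and 97.7% were in the lists of the other SOX2-OFF samples. Over all 20000 peaks these shares were 23.2%, 29.7% and 34.2% for CEpiLC and 21.2%, 22.9% and 24.8% for SOX2-OFF. Sharing with conditions of high SOX2 was lower at the top of the lists. The 500 strongest SOX2-OFF peaks were found in SOX2-ON lists, which are the same line with doxycycline maintained, at 77.1%, 84.9% and 74.2%, and in naive embryonic stem cell lists at 73.6%, 82.3% and 70.4%.

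Merging the 6 lists gave 72297 sites, of which 53145 (73.5%) had a peak in 1 sample only. Sites in 3 of 3 CEpiLC lists numbered 7488, and 2359 of them (31.5%) were in all 3 SOX2-OFF lists too. Another 1684 were in none of the SOX2-OFF lists, which is 2.33% of all sites. Sites in 3 of 3 SOX2-OFF lists numbered 3100. Of these, 2359 (76.1%) were in all CEpiLC lists and 135 (4.35%) were in none, which is 0.187% of all sites. Most reproducible SOX2-OFF sites were thus reproducible CEpiLC sites, and the reverse held for fewer. Absence in these counts means absence from the strongest 20000 peaks. In the full lists, 423 of the 1684 CEpiLC sites and 56 of the 135 SOX2-OFF sites had no peak in any sample of the other condition. Both counts depend on the length of the lists and on how many are asked for. With 2000 peaks per sample, 115 sites were found only in SOX2-OFF and 203 only in CEpiLC. With 2 of 2 lists in place of 3 of 3, the sites found only in SOX2-OFF were 592, 471 and 321 without SOX2-OFF replicates 1, 2 and 3, and the sites found only in CEpiLC were 2340, 3651 and 2850 without CEpiLC replicates 1, 2 and 3. Without CEpiLC replicate 3 the sites found only in SOX2-OFF were 266.

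The words that SOX2 recognises were less frequent under SOX2-OFF peaks. CATTGT or CTTTGT was present on either strand within 100 bp of the summit in 33.2%, 35.0% and 34.3% of SOX2-OFF peaks and in 50.5%, 40.6% and 42.5% of CEpiLC peaks. Every SOX2-OFF sample lay below every CEpiLC sample, by 10.4 percentage points between the means (34.2% ± 0.885 against 44.5% ± 5.27, SD, n = 3 each). The exact permutation p was 0.1, adjusted to 0.3 over 6 word sets. Windows of the same length 5000 bp away held these words in 25.9% to 27.1% of cases. The difference was present at the top of the lists too, where the 1000 strongest peaks had them in 48.1%, 53.2% and 46.8% in SOX2-OFF and 64.6%, 59.9% and 59.5% in CEpiLC. Among the peaks ranked after 10000, SOX2-OFF samples (29.8% to 30.7%) were close to the background, and CEpiLC samples (34.6% to 44.2%) were farther above it.

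The FOXH1 word AATCCACA showed the opposite order. It lay near 1.28%, 1.13% and 1.56% of SOX2-OFF summits and 0.665%, 0.815% and 0.750% of CEpiLC summits, against 0.795% to 0.940% in the windows 5000 bp away. SOX2-OFF samples were thus all above that background, and CEpiLC samples were at it or below (exact p = 0.1, adjusted p = 0.3). The CDX words TTTATGG or TTTATTG were in 6.04%, 5.34% and 4.77% of SOX2-OFF and 8.11%, 6.70% and 5.10% of CEpiLC peaks, with overlapping ranges (exact p = 0.3). Among the 2000 strongest peaks the ranges for the CDX words were apart, with 3.95%, 3.05% and 3.65% in SOX2-OFF and 9.10%, 7.60% and 5.45% in CEpiLC. The background for the CDX words was 7.19% to 7.83%, and all 3 SOX2-OFF samples and 2 of the 3 CEpiLC samples lay below it. The octamer ATGCAAAT was found at 3.04% ± 0.334 and 3.57% ± 0.341 (SD, n = 3 each; exact p = 0.2) and the T-box word GGTGTG at 14.8% ± 1.00 and 13.7% ± 0.917 (exact p = 0.2), in SOX2-OFF and CEpiLC in turn. The TCF words CTTTGAA or CTTTGAT were found at 12.6% ± 2.85 and 12.6% ± 0.773 (exact p = 1). No word of one set holds a word of another set.

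**Figure D2:**
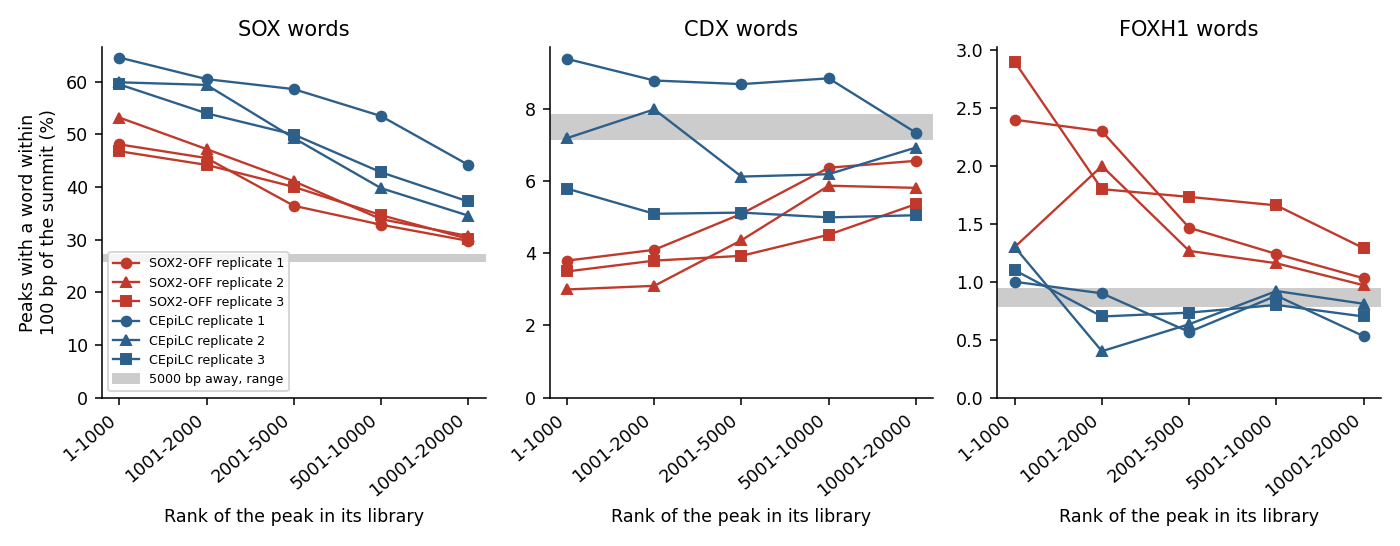
Share of SOX2 peaks with a SOX word, a CDX word or a FOXH1 word within 100 bp of the summit (vertical axes, percent) against the rank of the peak in its sample, with 1 line per sample and a grey band for the range in windows 5000 bp away. In the first 1000 ranks the SOX words reach 46.8% to 53.2% in SOX2-OFF and 59.5% to 64.6% in CEpiLC, and the CDX words 3.00% to 3.80% and 5.80% to 9.40%.

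The same words set the classes of sites apart. Around the strongest summit of each site, SOX words were in 51.3% of the sites found only in CEpiLC, 52.8% of the sites found in all 6 lists and 34.1% of the 135 sites found only in SOX2-OFF, against 26.7% in windows 5000 bp away. CDX words were the less frequent the more SOX2-OFF lists held the site, in 9.38%, 5.93%, 5.13% and 3.77% of the CEpiLC sites found in 0, 1, 2 and 3 SOX2-OFF lists. The octamer followed the reverse order, with 2.32%, 3.73%, 5.37% and 8.05%, and so did the TCF words, with 10.6%, 13.2%, 16.4% and 19.9%. The FOXH1 word was in 0.178% of the sites found only in CEpiLC, 1.40% of those in all 6 lists and 5.93% of those found only in SOX2-OFF. These shares describe the sites and carry no test.

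SOX2-OFF peaks also lay less often close to gene starts. The summit was within 1000 bp of the start of a protein-coding gene for 8.98%, 15.7% and 14.0% of SOX2-OFF peaks and 23.0%, 20.3% and 26.5% of CEpiLC peaks. The samples of the 2 conditions did not overlap, and the means differed by −10.4 percentage points (exact p = 0.1). In the 2000 strongest peaks the ranges overlapped, and the difference was −3.55 percentage points (exact p = 0.4). Of the sites found only in CEpiLC, 27.5% lay within this distance, against 18.2% of the sites found in all 6 lists and 14.8% of those found only in SOX2-OFF.

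At sites with a peak in all 6 full lists, binding strength could be compared directly. The deposited fold, which is the signal at the summit over the local background, was taken as log2, quantile normalised and tested with limma at 4492 sites. With a Benjamini-Hochberg adjusted p under 0.05, 152 sites (3.38%) were stronger in SOX2-OFF and 150 (3.34%) were stronger in CEpiLC. The deposited folds of the 6 samples did not overlap between conditions at 105 of the 152 and 145 of the 150. The sites were called on these same folds, so these counts are no further support. The share without overlap among all 4492 sites was not computed. The median log2 difference over all sites, SOX2-OFF minus CEpiLC, was 0.0044. With the percentile rank of the peak in place of its fold, 0 sites passed in limma in either direction, and 357 and 18 had an unadjusted p under 0.05. Without CEpiLC replicate 1 the counts were 33 and 37, and without CEpiLC replicate 2 they were 43 and 46.

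**Figure D3:**
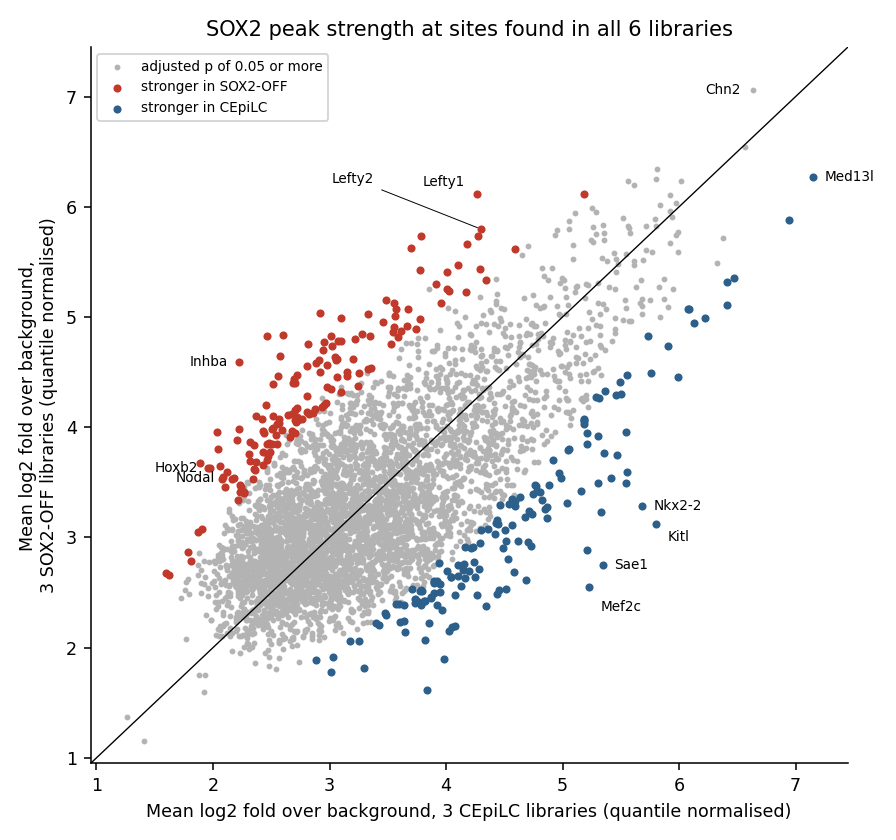
Mean log2 fold over background of SOX2 peaks (quantile normalised) in the 3 SOX2-OFF samples against the 3 CEpiLC samples, for 4492 sites with a peak in all 6 full lists, with the line of equality. Red points are the 152 sites called stronger in SOX2-OFF and blue points the 150 called stronger in CEpiLC, at an adjusted p under 0.05 in limma.

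Genes of Nodal signalling stood at several of the sites stronger in SOX2-OFF. Of 17 tested sites nearest to genes of a Nodal and anterior streak list of 20, 5 were stronger in SOX2-OFF and 0 in CEpiLC, against 104 and 116 of the 3517 tested sites within 100 kb of a gene start. Their median log2 difference was 0.17, against −0.02 for those 3517. A further 2 sites of this list, 1 of them nearest to Smad7, were found only in CEpiLC. The sites stronger in SOX2-OFF included those of Nodal, which encodes the ligand, Tdgf1, its co-receptor, and Lefty1 and Lefty2, its secreted inhibitors. The site 10.1 kb upstream of Lefty1 had a fold of 53.3, 54.3 and 107 in SOX2-OFF and 15.3, 26.4 and 21.3 in CEpiLC. No values overlapped, and the log2 difference was 1.85 ± 0.30 (SE, limma adjusted p = 0.00056). At Lefty2, 4.28 kb upstream of the start, the fold was 41.7, 66.1 and 59.0 in SOX2-OFF and 13.7, 24.4 and 27.9 in CEpiLC, again apart (log2 difference 1.50 ± 0.31, limma adjusted p = 0.0034).

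The sites of Nodal and Tdgf1 were weaker. The site 11.7 kb upstream of Nodal had a fold of 6.59, 10.9 and 21.9 in SOX2-OFF and 2.92, 5.39 and 6.51 in CEpiLC, with the lowest SOX2-OFF value just above the highest CEpiLC value (log2 difference 1.47 ± 0.37, limma adjusted p = 0.014). The Tdgf1 site, 1.46 kb upstream, had 11.0, 12.7 and 26.7 against 6.02, 5.22 and 8.23, so the groups did not overlap (log2 difference 1.46 ± 0.37, limma adjusted p = 0.016). Leaving out single samples kept Lefty1 and Lefty2 past the threshold in all 6 cases and each of Nodal and Tdgf1 in 3 of 6. In SOX2-ON samples, of the same line, the Lefty1 site had a fold of 9.27, 6.84 and 18.0 and the Lefty2 site 9.77, 11.1 and 20.0, and in naive embryonic stem cells the Lefty1 site had 26.9, 49.1 and 44.6.

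The Lefty1 and Lefty2 sites hold a FOXH1 word, whereas the Nodal site holds a TCF word and the Tdgf1 site none of the searched words. The FOXH1 word was within 100 bp of the summit at 61 of the 4492 tested sites, and 13 of the 61 (21.3%) were stronger in SOX2-OFF and 1 (1.64%) in CEpiLC, against 3.38% and 3.34% of all sites. Among the 152 sites stronger in SOX2-OFF, 8.55% held the word, against 0.667% of the 150 stronger in CEpiLC and 1.36% of all tested. Besides Lefty1 and Lefty2, it lay at sites 3.30 kb upstream of Fgf8, a growth factor of the caudal epiblast, 8.38 kb upstream of Hoxb2, in an intron of Hoxb3 and over an antisense transcript, and at the sites nearest to Pkdcc and Bcar3. The Hoxb2 site had a fold of 7.20, 15.0 and 14.7 in SOX2-OFF and 2.51, 4.45 and 7.12 in CEpiLC, the groups just apart (log2 difference 1.66 ± 0.36, limma adjusted p = 0.0061). The Fgf8 site had 5.37, 13.0 and 44.8 against 3.60, 5.26 and 8.23, with overlap (log2 difference 1.55 ± 0.44, limma adjusted p = 0.031), and it passed in 3 of 6 fits without a sample.

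Below are 201 bases around the strongest summit of 3 of these sites on the plus strand of GRCm38, to show how many copies of the word each holds. Capitals mark the searched words, which here are AATCCACA in either orientation (read as TGTGGATT on the opposite strand) and, at Lefty1, also the SOX words. The Lefty1 window (chr1:180924799-180924999), the Lefty2 window (chr1:180888729-180888929) and the Hoxb2 window (chr11:96342042-96342242) follow in this order.
Lefty1: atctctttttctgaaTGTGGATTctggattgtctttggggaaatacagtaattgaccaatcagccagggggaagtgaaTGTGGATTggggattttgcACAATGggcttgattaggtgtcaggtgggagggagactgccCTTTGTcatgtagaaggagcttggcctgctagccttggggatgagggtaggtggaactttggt
Lefty2: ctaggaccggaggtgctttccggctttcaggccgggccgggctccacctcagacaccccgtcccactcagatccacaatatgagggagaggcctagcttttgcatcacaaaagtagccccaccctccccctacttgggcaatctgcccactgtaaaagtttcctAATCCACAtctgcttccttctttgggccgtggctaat
Hoxb2: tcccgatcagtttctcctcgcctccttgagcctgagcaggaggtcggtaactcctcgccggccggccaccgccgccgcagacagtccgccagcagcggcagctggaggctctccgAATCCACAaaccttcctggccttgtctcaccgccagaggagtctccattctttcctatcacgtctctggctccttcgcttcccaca
The Lefty1 window holds 2 copies, and the Lefty2 and Hoxb2 windows hold 1 copy each. None of the 3 windows holds a CDX, TCF or octamer word.

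The 10 sites with the smallest p among those stronger in SOX2-OFF had log2 differences from 1.85 to 2.36. Besides Lefty1 they were nearest to Inhba, which encodes an activin subunit, Hes1, a Notch target, and Ttc29, Larp1, Pkdcc, Opa1, Akr1d1, Bcar3 and Olfr487. None of their summits lay in an exon. The site nearest to Inhba (chromosome 13, 16830184 to 16831008, 819 kb from the start) had a fold of 15.0, 33.1 and 24.9 in SOX2-OFF and 5.67, 4.55 and 4.88 in CEpiLC, far apart, with a log2 difference of 2.36 ± 0.37 (limma adjusted p = 0.00035). SOX2-ON samples had 24.1, 27.7 and 44.4 there, overlapping SOX2-OFF and above CEpiLC. The site was chosen for low folds in CEpiLC, which by itself favours higher values in SOX2-ON. The site 91.8 kb downstream of Hes1 had 16.9, 22.6 and 48.1 against 5.00, 4.26 and 10.2, also apart (log2 difference 2.36 ± 0.38, limma adjusted p = 0.00048). At the Ttc29 site, 145 kb upstream of the start, which holds a SOX and a TCF word, the fold was 22.8, 18.7 and 45.8 against 5.28, 7.15 and 7.48 (log2 difference 2.23 ± 0.38, limma adjusted p = 0.00065). All these 10 sites stayed past the threshold when each single sample was left out.

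The sites stronger in CEpiLC were rich in SOX and CDX words. SOX words were at 111 of the 150 sites (74.0%) against 64 of the 152 stronger in SOX2-OFF (42.1%) and 48.9% of all tested. CDX words were at 20 (13.3%) against 3 (1.97%) and 4.12%. Of the 185 tested sites with a CDX word, 10.8% were stronger in CEpiLC and 1.62% in SOX2-OFF. The 10 sites with the smallest p were nearest to Sae1, Nkx2-2, a homeobox gene of the ventral neural tube, Ago1, Mef2c, a muscle and neural transcription factor gene, Kitl, which encodes the KIT ligand, Car8, Sobp, Snapc3, Clybl and Slc25a17.

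The folds at these sites were several times lower in SOX2-OFF. The site in an intron of Sae1 had 4.77, 6.38 and 8.62 in SOX2-OFF and 41.7, 41.5 and 39.7 in CEpiLC, with a log2 difference of −2.59 ± 0.36 (limma adjusted p = 0.00018). At Kitl, 50.6 kb downstream of the start, the fold was 8.89, 3.35 and 16.2 against 56.6, 52.4 and 55.8 (log2 difference −2.68 ± 0.41, limma adjusted p = 0.00032). The site 237 kb downstream of Mef2c had 5.16, 6.47 and 4.44 against 54.3, 35.1 and 25.7 (log2 difference −2.68 ± 0.41, limma adjusted p = 0.00029). The groups were far apart at all 3 sites. All 3 had a SOX2 peak in the lists of all 3 SOX2-ON samples as well, with folds of 17.8, 24.3 and 11.8 at Sae1, 20.5, 22.7 and 22.8 at Kitl and 12.7, 18.6 and 24.5 at Mef2c. Each SOX2-ON value was above each SOX2-OFF value at these 3 sites and at Ago1, Sobp and Snapc3. The values overlapped at Car8, Clybl and Slc25a17. At Nkx2-2 every SOX2-ON value (4.59, 6.00 and 6.21) was below every SOX2-OFF value (9.66, 6.58 and 10.3). The folds of SOX2-ON were not normalised together with the others. These sites were chosen for low folds in SOX2-OFF, which by itself favours higher values in SOX2-ON. Whether doxycycline changed SOX2 binding at them was not tested. All 10 sites stayed past the threshold with each single sample left out.

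At genes of the caudal epiblast and of the neural and primed epiblast, as over all genes, more sites were found only in CEpiLC than only in SOX2-OFF. For 36 caudal genes, 13 such sites lay nearest to 10 genes (Cdx2, Cdx4, Fgf17, Hoxa5, Hoxb4, Hoxb8, Meis1, Meis2, Meis3 and Wnt5a), and 1 site found only in SOX2-OFF lay nearest to Wnt8a. For 17 neural and primed epiblast genes there were 11 (with Hes5, Pax6, Pou3f2, Sox1 and Sox4 among the genes) and 0. The Sox4 site 69.4 kb downstream of the start had a peak in every full SOX2-OFF list too. It did not pass when tested for strength (log2 difference −0.89 ± 0.34, limma adjusted p = 0.11). Over all genes the counts were 1407 and 96. Among shared sites, 0 of 24 caudal and 0 of 16 neural sites were stronger in CEpiLC, and 2 caudal sites (Fgf8 and Hoxb2) and 0 neural sites were stronger in SOX2-OFF. Over all tested sites the shares were 3.34% and 3.38%. The median log2 differences were −0.26 for the caudal and −0.21 for the neural list, against −0.02 for all tested sites within 100 kb of a gene start. They were lower still for the WNT feedback list (−0.33) and the streak and paraxial mesoderm list (−0.31). The pluripotency list (0.12) and the Nodal and anterior streak list (0.17) lay above 0.

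The Meis3 site is the clearest of these. Meis3 encodes a homeobox cofactor of HOX proteins, and its site, 0.902 kb upstream of the start, had a fold of 13.3, 17.2 and 12.7 in CEpiLC. None of the full SOX2-OFF lists held a peak there, nor did the strongest 20000 peaks of SOX2-ON or naive embryonic stem cells. The Hoxb4 site 1.75 kb upstream of the start had 15.4, 15.3 and 12.2 in CEpiLC and likewise no peak in the full SOX2-OFF lists. At both, β-catenin was in 3 of 3 CEpiLC lists and in 0 of 3 SOX2-OFF lists. LEF1 was in 3 of 3 CEpiLC lists at both, and in 0 of 3 SOX2-OFF lists at Meis3 and 1 of 3 at Hoxb4. The site 0.154 kb upstream of Hes5, a Notch target of neural progenitors, had 11.6, 11.9 and 9.34 in CEpiLC and no peak in the full SOX2-OFF lists, yet was in 3 of 3 SOX2-ON and naive lists.

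The next windows show the words at 4 CEpiLC sites, with 1 site of all 6 lists for comparison. Each has 201 bases around the strongest summit on the plus strand of GRCm38, with the CDX words TTTATGG or TTTATTG, the SOX words and the TCF words in capitals in either orientation. The windows are Meis3 (chr7:16174088-16174288), Hoxb4 (chr11:96316418-96316618), Sae1 (chr7:16365256-16365456), Kitl (chr10:100066148-100066348) and Chn2 (chr6:54096951-54097151).
Meis3: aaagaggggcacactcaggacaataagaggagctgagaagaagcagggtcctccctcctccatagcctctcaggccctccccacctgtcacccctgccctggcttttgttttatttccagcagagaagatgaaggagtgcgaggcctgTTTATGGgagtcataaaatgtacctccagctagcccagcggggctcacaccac
Hoxb4: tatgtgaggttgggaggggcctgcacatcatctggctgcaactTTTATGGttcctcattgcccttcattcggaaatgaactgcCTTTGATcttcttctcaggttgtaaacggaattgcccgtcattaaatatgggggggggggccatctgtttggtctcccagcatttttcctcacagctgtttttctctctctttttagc
Sae1: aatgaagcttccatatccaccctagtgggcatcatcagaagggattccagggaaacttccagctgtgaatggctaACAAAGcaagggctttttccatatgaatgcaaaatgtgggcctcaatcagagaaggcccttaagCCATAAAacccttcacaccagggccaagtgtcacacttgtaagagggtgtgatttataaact
Kitl: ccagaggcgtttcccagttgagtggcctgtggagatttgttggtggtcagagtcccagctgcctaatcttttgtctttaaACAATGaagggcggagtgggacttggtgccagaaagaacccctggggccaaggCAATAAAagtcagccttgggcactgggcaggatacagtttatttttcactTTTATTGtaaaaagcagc
Chn2: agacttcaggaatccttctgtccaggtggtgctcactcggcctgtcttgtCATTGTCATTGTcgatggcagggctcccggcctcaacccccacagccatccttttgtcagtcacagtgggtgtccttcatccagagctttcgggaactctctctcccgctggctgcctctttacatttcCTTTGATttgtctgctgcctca
The Meis3 and Hoxb4 windows hold a CDX word and no SOX word, the Sae1 and Kitl windows hold both, and the Chn2 window holds 2 adjoining SOX words and a TCF word.

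**Figure D4:**
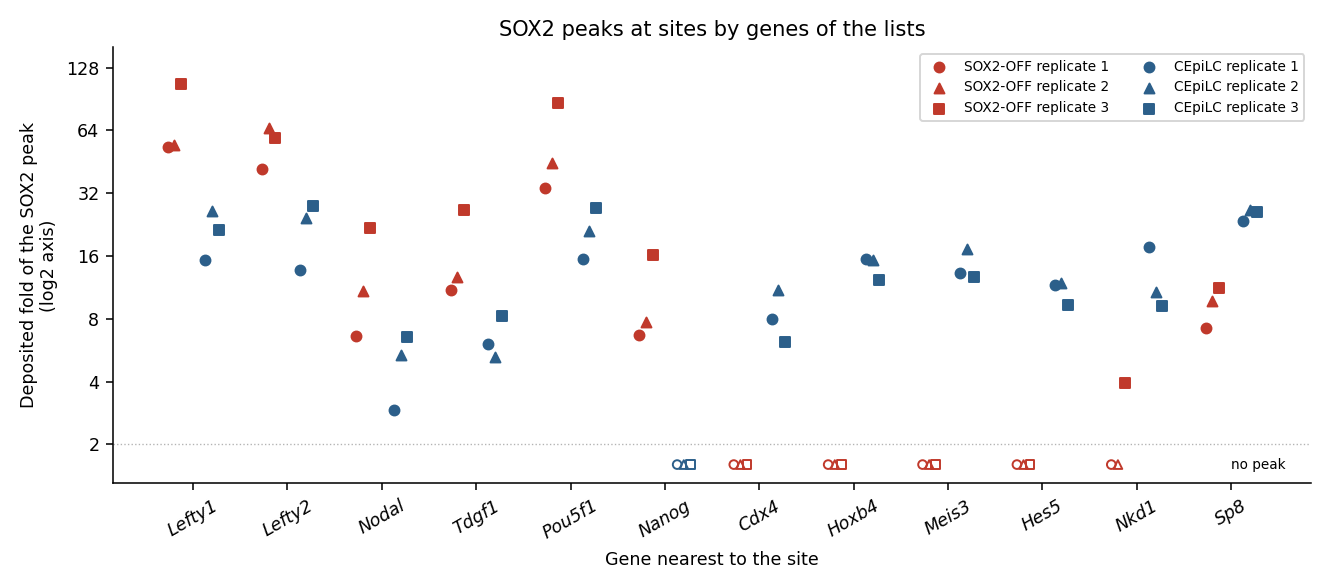
Deposited fold of the SOX2 peak in each sample (vertical axis, log2 spacing) at 12 sites nearest to genes of the lists, with open symbols below the dotted line for samples whose full list has no peak there. SOX2-OFF samples are higher at Lefty1 to Nanog, with no CEpiLC peak at Nanog, and CEpiLC samples are higher from Cdx4 to Sp8, with no SOX2-OFF peak at Cdx4, Hoxb4, Meis3 and Hes5 and 1 at Nkd1.

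Few sites by pluripotency and WNT genes passed, at shares near the 3.38% and 3.34% of all tested sites. Of 27 tested sites nearest to 18 pluripotency genes, 1 was stronger in SOX2-OFF and 1 in CEpiLC, and 3 sites found only in CEpiLC were nearest to Lin28a, Prdm14 and Sall4. The site 0.903 kb upstream of Pou5f1, which encodes OCT4, had a fold of 33.9, 44.7 and 86.2 in SOX2-OFF and 15.5, 21.0 and 27.1 in CEpiLC, without overlap (log2 difference 1.46 ± 0.31, limma adjusted p = 0.0043). The start of Lin28a, an RNA-binding protein gene, had 17.0, 36.3 and 32.8 against 38.1, 61.4 and 75.7, the groups just apart (log2 difference −0.90 ± 0.28, limma adjusted p = 0.047), and it passed in 1 of 6 fits without a sample and not with median centring. A site 3.59 kb upstream of Nanog was found only in SOX2-OFF, with 6.72, 7.69 and 16.1. Of 21 tested sites nearest to 16 WNT feedback genes, 1 was stronger in SOX2-OFF (Znrf3) and 1 in CEpiLC (Sp8), which passed in 1 and 2 of 6 fits without a sample, and 4 sites found only in CEpiLC were nearest to Myc, Nkd1, Sp8 and Tcf7l2. For 14 genes of the streak and paraxial mesoderm, 0 of 14 tested sites passed in either direction. The 1 site counted as found only in CEpiLC, nearest to Dll1, was absent only from the shortened SOX2-OFF lists. Every full SOX2-OFF list held a peak there, with a fold of 3.39, 4.61 and 5.59 against 5.79, 5.96 and 5.78 in CEpiLC. This Dll1 site was therefore also tested for strength and did not pass (log2 difference −0.24 ± 0.29, limma adjusted p = 0.65).

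Loci of genes central to this system mostly kept SOX2 peaks in both conditions. Within the gene body and 10 kb upstream, Cdx2, a master gene of posterior identity, held 3, 4 and 4 of the strongest 20000 peaks in SOX2-OFF and 6, 8 and 4 in CEpiLC, with a highest fold of 13.2, 13.5 and 21.7 against 16.2, 29.2 and 34.4. T, the brachyury gene, held 3, 1 and 3 against 4, 2 and 3, with a highest fold of 6.63, 18.4 and 24.6 against 16.9, 18.2 and 21.9. The counts of both genes overlapped between conditions. Nodal held 3, 4 and 4 against 2, 3 and 4. Hoxb9 held 2, 1 and 2 against 3, 2 and 4, and Klf2, a naive pluripotency gene, 1, 2 and 2 against 1, 2 and 2. Tbx6, a mesoderm gene, held 0, 1 and 1 against 0, 2 and 2. Meis3 had 0 in each SOX2-OFF sample and 2, 1 and 1 in CEpiLC. Of the caudal list, Hoxa5 (3, 3 and 1 in CEpiLC) and Wnt5a (3, 2 and 5) had none in SOX2-OFF either. In the full lists, the Meis3 locus held 1, 4 and 4 peaks in SOX2-OFF against 5, 4 and 2 in CEpiLC. Hoxa5 held 0, 7 and 7 against 7, 7 and 4, and Wnt5a 0, 7 and 6 against 5, 6 and 8. The Sox2 locus, whose own gene is disrupted in SOX2-OFF, held 1, 1 and 0 of the strongest 20000 peaks against 6, 2 and 3. In the full lists it held 2, 7 and 11 against 7, 5 and 6, and both these counts and the highest folds overlapped between conditions. Of 4 tested sites nearest to Sox2, 0 passed in either direction.

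By whole lists, fewer caudal genes had a bound locus in SOX2-OFF. Of 36 caudal genes, 25, 21 and 29 had a SOX2 peak in SOX2-OFF and 35, 33 and 34 in CEpiLC, without overlap. Over all 21938 protein-coding genes the numbers were 7600, 8547 and 7924 against 8350, 8871 and 9036, which overlap. For the other lists the ranges overlapped too: 13, 13 and 17 against 15, 14 and 18 of 20 Nodal and anterior streak genes, 13, 16 and 14 against 15, 15 and 14 of 18 pluripotency genes, 13, 11 and 17 against 16, 15 and 15 of 17 neural and primed epiblast genes, 14, 14 and 14 against 13, 15 and 13 of 16 WNT feedback genes, and 8, 11 and 11 against 9, 9 and 11 of 14 streak and paraxial mesoderm genes. Neighbouring Hox genes, which make up most of the caudal list, share peaks in these windows. With all deposited peaks, the caudal counts were 33, 35 and 36 against 35, 35 and 36.

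β-catenin and its DNA-binding partners were present at a minority of the sites found in 1 condition, and on average more often in the condition with SOX2. Their lists took no part in choosing the sites. At the 1684 sites found only in CEpiLC, β-catenin was present at 12.9%, 8.43% and 6.77% in CEpiLC samples and at 2.55%, 1.31% and 2.20% in SOX2-OFF samples. LEF1 was present at 11.8%, 9.92% and 8.08% against 0.891%, 0.950% and 0.950%. TCF7L2 was at 8.06% ± 1.48 against 3.50% ± 0.157 and TCF7L1 at 1.84% ± 0.514 against 0.515% ± 0.268 (SD, n = 3 each). No samples of the 2 conditions overlapped for any of the 4 proteins, and each difference had an exact permutation p of 0.1, adjusted to 0.133 over 8 tests. With all deposited peaks of these proteins the samples overlapped, with differences of −15.3 for β-catenin (exact p = 0.4), −8.85 for LEF1 (exact p = 0.3), −1.54 for TCF7L1 (exact p = 0.9) and −22.4 percentage points for TCF7L2 (exact p = 0.2).

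At the 135 sites found only in SOX2-OFF the order was reversed for β-catenin and TCF7L1. β-catenin was present at 25.2%, 30.4% and 29.6% in SOX2-OFF samples and at 4.44%, 11.9% and 11.1% in CEpiLC samples, and TCF7L1, which represses WNT targets, at 12.6%, 14.1% and 15.6% against 0%, 3.70% and 6.67%. Both were apart (exact p = 0.1, adjusted p = 0.133), also with all deposited peaks, where the differences were 28.6 and 35.3 percentage points (exact p = 0.1). LEF1, at 10.4% ± 4.51 against 7.65% ± 3.73, and TCF7L2, at 4.44% ± 1.96 against 2.22% ± 1.48, overlapped between conditions (exact p = 0.6 and 0.3, adjusted p = 0.6 and 0.343). At the 2359 sites of all 6 lists, β-catenin was close between conditions, at 36.6% ± 1.56 in SOX2-OFF and 37.9% ± 1.46 in CEpiLC, whereas LEF1 was at 18.4% ± 3.35 and 33.8% ± 1.92, TCF7L2 at 16.6% ± 2.53 and 23.0% ± 2.94 and TCF7L1 at 24.7% ± 1.92 and 19.4% ± 7.11. LEF1 and TCF7L2 thus differed also where SOX2 was found in both conditions, without overlap between samples. Replicate samples of different proteins may share cultures, which the labels do not say.

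**Figure D5:**
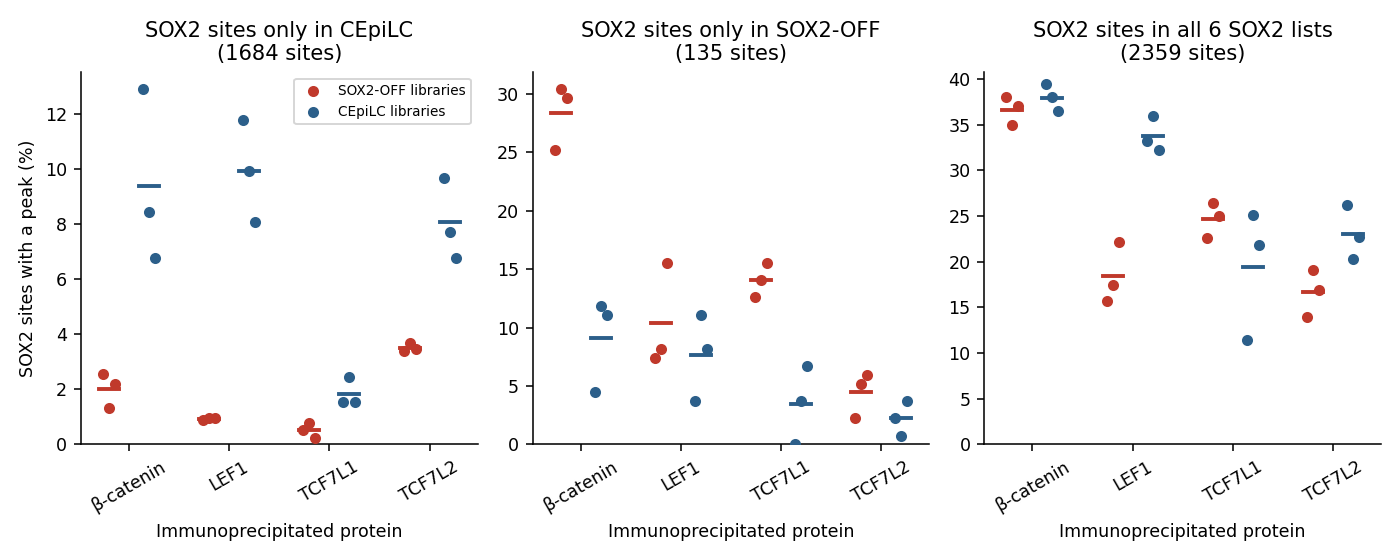
Share of SOX2 sites overlapped by a peak of β-catenin, LEF1, TCF7L1 or TCF7L2 (percent), with 1 point per sample and a bar for the mean of 3, for the 1684 sites found only in CEpiLC, the 135 found only in SOX2-OFF and the 2359 found in all 6 lists. β-catenin is at 6.77% to 12.9% in CEpiLC and at 1.31% to 2.55% in SOX2-OFF in the first panel, and the order turns in the second. Each panel has its own vertical scale.

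The strength of SOX2 at shared sites moved with the same proteins. At 38 tested sites with β-catenin in 3 SOX2-OFF and 0 CEpiLC lists, 16 (42.1%) were stronger for SOX2 in SOX2-OFF and 0 in CEpiLC, with a median log2 difference of 1.08. At 64 sites with the reverse pattern, 0 were stronger in SOX2-OFF and 16 (25.0%) in CEpiLC, with a median of −0.72. Sites with β-catenin in all 6 lists, 757 in number, had a median of 0.17, and 2517 sites with β-catenin in none had −0.04. For LEF1 the 173 sites with peaks in 3 CEpiLC and 0 SOX2-OFF lists had a median of −0.38, with 16 stronger in CEpiLC and 0 in SOX2-OFF. Of the 10 sites named for each direction, not all followed this pattern. The Mef2c, Sae1, Nkx2-2, Car8, Sobp and Slc25a17 sites had β-catenin in 3 of 3 CEpiLC lists and in at most 1 SOX2-OFF list, whereas Kitl and Clybl had it in 1 CEpiLC list and Ago1 and Snapc3 in none. The Ttc29 and Pkdcc sites had it in 3 of 3 SOX2-OFF lists and no CEpiLC list, and Larp1 and Opa1 had it in 3 SOX2-OFF lists but also in 1 and 2 CEpiLC lists. Hes1, Lefty1 and Bcar3 had it in 1 SOX2-OFF list, and Inhba, Akr1d1 and Olfr487 in none.

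SOX2-ON samples and naive embryonic stem cells held SOX2 at many of these sites. A SOX2 peak was present at 33.3% ± 2.59 (SD, n = 3) of the sites found only in CEpiLC in SOX2-ON and at 31.1% ± 4.68 in naive embryonic stem cells. The sites found only in SOX2-OFF had one at 23.0% ± 4.51 and 22.7% ± 7.57, and those of all 6 lists at 73.1% ± 2.93 and 68.6% ± 7.92. With all deposited peaks the shares for the sites found only in CEpiLC were 65.1% ± 8.47 in SOX2-ON and 67.3% ± 11.7 in naive cells. The sites found only in CEpiLC were chosen as absent from the shortened SOX2-OFF lists, so an excess of SOX2-ON over SOX2-OFF there was fixed by the choice. The full SOX2-OFF lists held a peak at 8.61%, 52.4% and 54.3% of these sites. Whether doxycycline changed SOX2 binding there was not tested. Of the 1684 sites, 777 were in 0 of 3 SOX2-ON lists.

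Extreme sites of each class were as follows. Among sites absent from every full CEpiLC list, the highest median folds in SOX2-OFF were at sites nearest to Cxcl12 (chromosome 6, 117198875 to 117199351), with 9.92, 17.2 and 24.5, Lilra5 (chromosome 7, 4251078 to 4251510), with 5.94, 18.0 and 16.3, and Ackr4 (chromosome 9, 104118587 to 104119149), with 15.9, 15.1 and 16.6. The Cxcl12 and Lilra5 sites were in 3 of 3 naive lists and 0 of 3 SOX2-ON lists, whereas Ackr4 was in none of either. Among sites absent from every full SOX2-OFF list, those nearest to Irx1 (chromosome 13, 72209936 to 72210504), Pctp (chromosome 11, 90007710 to 90008382) and Tenm2 (chromosome 11, 38792777 to 38793427) led in CEpiLC, with 27.7, 16.4 and 19.9, with 16.9, 19.5 and 17.1, and with 16.3, 20.1 and 7.66. All 3 were in 0 of 3 SOX2-ON and naive lists.

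Sites near the top of every list were held in all conditions. The site in an intron of Chn2 ranked 11th or better in all 6 lists, with a fold of 95.8, 169 and 169 in SOX2-OFF and 61.1, 97.0 and 163 in CEpiLC, which overlap (log2 difference 0.42 ± 0.20, limma adjusted p = 0.19). The site nearest to Med13l, 495 kb downstream of its start, had 60.8, 86.4 and 82.8 against 71.5, 152 and 168, which overlap, and a log2 difference of −0.88 ± 0.20 (limma adjusted p = 0.0075). With median centring its adjusted p was 0.30. Both sites were also in every SOX2-ON and naive list and in all 6 lists of each of the 4 other proteins.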

How the data were processed

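Narrow peak lists of 6 SOX2 ChIP-seq samples, with lists of 4 other proteins and 2 other conditions, were analysed as deposited. According to the submitters' notes and the study's methods, the authors aligned single-end reads of 76 bp to mm10 and called peaks with MACS2 at its default q-value threshold (no peak in these lists exceeded 0.05), in each sample separately. The deposited fold is the ratio of summit signal to local background, the deposited −log10 p-value and q-value refer to the summit, and the deposited score is 10 times the −log10 q-value. Each list was shortened to 20000 peaks (β-catenin 3423, LEF1 4443, TCF7L1 1628, TCF7L2 4134). Peaks sharing 1 bp were merged into sites; other proteins had to cover 10% of a site. limma 3.58.1 (R 4.3.3, eBayes with trend, Benjamini-Hochberg) tested log2 folds and was tested on simulated data. Other comparisons used exact permutation tests, two-sided unless stated. Genes came from GENCODE vM21 and sequence from RefSeq GRCm38.p6. Named sites were the 10 with the smallest p per direction, 3 with the highest median fold per direction absent from the other condition, 3 with the best lowest rank, and genes of the lists; some of these are not reported here. Samples, lists and tests were chosen with earlier results of these data known. The labels name biological replicates, and the study's methods state that triplicates came from separate experiments. No sample was left out or imputed in the main tests, and input samples were not analysed here.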

Additional observations from a re-analysis of the deposited data

How the results depend on the processing

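Peak lists without reads limit precision, and absence of a peak depends on depth, which is unknown. Leaving out single samples moved the sites found only in SOX2-OFF to 179 to 592 and those found only in CEpiLC to 1978 to 3651, against 135 and 1684. With 2000 peaks per sample the counts were 115 for SOX2-OFF and 203 for CEpiLC, and with 10000 peaks 157 and 934. With all deposited peaks they were 632 and 1488. With absence from the full lists the counts were 56 and 423. The shares of sites with a peak in SOX2-ON and naive cells rose with all deposited peaks, to 65.1% and 67.3% for CEpiLC sites and 44.4% and 49.9% for SOX2-OFF sites. For binding strength, leaving out single samples gave 33 to 262 sites stronger in SOX2-OFF and 37 to 242 stronger in CEpiLC, percentile ranks gave 0 and 0, and 22778 sites with a peak in at least 3 full lists gave 409 and 362. With the replicate number as a block (replicate block) the counts were 235 and 228. Deviations of same-numbered samples correlated at 0.108, 0.0675 and 0.108, and those of different numbers at −0.103 to −0.000369. Each sample thus correlated best with its own number. The main tests did not take the numbers as pairs, and whether same-numbered samples share a batch was not tested. Of 30 sites named for their difference in strength or in the gene lists, 29 stayed past the threshold with median centring (not Lin28a) and all 30 lost it with percentile ranks, with 0 changes of direction in any alternative. Med13l, named for its rank, also lost its call with median centring (limma adjusted p = 0.30). The log10 difference in peak number was 0.180 to 0.769 over all alternatives, and the excess of the Jaccard index within conditions 0.00791 to 0.114. Differences that turned were those of the TCF words, from −0.0233 to 0.727 within 250 bp, 4.35 with 2000 peaks and −1.64 to 1.07 without single samples, of the octamer, from −0.525 to 0.283 with 2000 peaks, and of TCF7L2 at sites found only in SOX2-OFF, from 2.22 to −5.19 percentage points with all its peaks. At sites found only in CEpiLC, all deposited peaks of the other proteins took the differences to −15.3 (β-catenin) and −22.4 (TCF7L2) percentage points, with overlapping samples. The cause was not tested. All other tested differences kept their direction, and none could pass 0.05.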
